A study of Mus musculus with 27 samples.

Results

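The genes described here encode the machinery that shortens, unwraps and destroys mRNA: the CCR4-NOT deadenylase (11 genes), the RNA exosome with its nuclease Dis3 (11), the Lsm proteins (11), and the decapping enzyme with its cofactors and the 5′-3′ exonucleases Xrn1 and Xrn2 (8). The rule for members reads gene symbols and no measured value, although it was drawn up with earlier results of these data known, and it took 41 of the 25209 genes listed in the study. All 41 passed the filter on low base means in each of the 8 comparisons analysed. By position, 7 of them (Cnot1, Cnot7, Exosc6, Lsm1, Lsm4, Lsm6 and Edc4) lie on mouse chromosome 8 and 34 elsewhere, and the question was whether the 7 moved with their complex partners or with their chromosome.

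RNA of V6.5 cells, a mouse embryonic stem cell line, was sequenced in 27 libraries. WT cells and 2 clones with both copies of Zfp512b disrupted, KO4 and KO8, were sampled in the naive state, kept by LIF together with MEK and GSK3 inhibitors (day 0, 3 libraries per group). The same lines were sampled after priming with serum and LIF (primed, day 2), after embryoid body culture with vitamin C towards cardiomyocytes (CM, day 7.5) and after embryoid body culture with retinoic acid towards neural progenitors (NPC, day 10), with 2 libraries per group. Each knockout line is 1 clone that carries a triple transcriptional terminator behind exon 3 of Zfp512b together with an mCherry or puromycin resistance gene. WT cells did not pass through editing and selection, and the 2 clones were picked among 6 for their small gain in growth, so the knockout and the history of a clone cannot be told apart. Nothing in the labels says that replicates came from separate cultures, and the errors below may therefore be technical.

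The files hold 1 table per clone and stage, with a base mean (the mean normalised count over the libraries compared), a log2 fold change of knockout over WT, its standard error (SE) and a p-value from DESeq2, but no value per library. The mean of each group was recovered from the base mean and the fold change once the prior that pulls fold changes towards 0 was taken out. For the 41 genes, the WT means recovered from the KO4 table and from the KO8 table of a stage differed by at most 0.0833%. These group means, in normalised counts, are printed below without a spread of their own, and the error of a difference is the SE of its log2 fold change. Both clones of a stage share the WT libraries, so an error in the WT mean enters both comparisons. Stages were normalised separately, and levels are compared only within a stage.

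Depth, estimated from genes with 1 read, was between 34.2 and 39.7 megareads per naive library and between 15.1 and 19.5 megareads elsewhere. Zfp512b itself was lower in all 8 comparisons, by log2 fold changes between -1.93 and -3.15. Most stages carried the marker RNA of their label, with Fgf5 weak in primed cells (base means of 35.2 and 38.1) and endothelial Cdh5 present in NPC cultures (1651 and 1589). Of the neural progenitor markers, Pax6, Nes, Sox3 and Hes5 ranked higher by base mean in NPC than in naive comparisons. Sox1 did not clearly do so (percentiles of 57.6 and 60.3 against 58.4 and 57.3), nor did Tubb3 (85.4 and 90.9 against 90.8 and 90.6). Marker RNA also differed between the clones and WT in NPC cultures. The 6 neural progenitor markers summed there to 181% of WT in KO4 and 195% in KO8, over recovered WT sums of 4832 and 5136. Their sum was also above WT in naive cells (171% in both clones) and primed cells (150% and 151%). The naive sum rested mainly on Tubb3 (base means of 4220 and 4126) and Nes (2189 and 2325). Pax6, Sox1, Sox3 and Hes5 had base means of at most 129 there. Of the 6 markers, 4 were called higher in naive KO4 and 2 in naive KO8, and 2 and 3 in the primed clones. In NPC cultures Cdh5 was higher (log2 fold changes of 1.16 and 1.00), while endothelial Pecam1 (0.05 and -0.37) was called in neither clone. The mesenchymal genes Acta2 (-1.64 and -0.59) and Col1a1 (-0.92 and -0.64) were lower there. The CM cultures of KO4 went against their label. The 6 cardiomyocyte markers examined summed to 58723 normalised counts in WT and 574 in KO4, 0.978% of WT, and all 6 fell. The 6 neural progenitor markers rose and summed to 308% of WT. A further 8 markers of other cell types summed to 44.1% of WT in KO4, with 7 called lower and 1 higher. In the CM cultures of KO8 the cardiomyocyte markers summed to 48.0% of WT and the neural progenitor markers to 45.5%. The neural set was split, with Nes (-1.32) and Tubb3 (-0.88) called lower, Sox1 (1.32) called higher, and Pax6, Sox3 and Hes5 not called. The 8 markers of other cell types summed to 166%. Among those 8, Col1a1 was higher by 2.47 and the blood gene Hbb-bh1 by 2.07 on the log2 scale. Pecam1 (-0.61), Cdh5 (-0.49) and Acta2 (-0.24) were called lower, and Afp, Sox17 and Foxa2 were not called. In such bulk samples, fewer cells of a type and less RNA per cell cannot be told apart, and each CM result is given for both clones.

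As background, an mRNA usually loses its poly(A) tail first. CCR4-NOT, built on the scaffold Cnot1, does most of this with its deadenylases Cnot6 or Cnot6l and Cnot7 or Cnot8. The shortened tail is then bound by the ring of Lsm1 to Lsm7 with Patl1, which promotes removal of the cap by Dcp2 with Dcp1a or Dcp1b, Edc3 and the scaffold Edc4, and Xrn1 digests the exposed 5′ end. The exosome, a ring of Exosc4 to Exosc9 under a cap of Exosc1 to Exosc3, guides RNA to the nucleases Dis3 and Exosc10 from the 3′ end. In the nucleus Lsm8 takes the place of Lsm1 and the ring binds U6 RNA, while Lsm10 and Lsm11 belong to the U7 particle that trims histone mRNA. Gain of chromosome 8 is a known recurrent change of mouse embryonic stem cells in culture.

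In the mm9 annotation, the build of the deposited tables, the members on chromosome 8 are spread along the chromosome. Lsm1 lies at chr8:26896063-26914447 on the plus strand, Cnot7 at chr8:41577894-41601201 on the minus strand and Lsm4 at chr8:73197147-73202651 on the plus strand. Lsm6 lies at chr8:81328764-81345039 and Cnot1 at chr8:98243351-98331366, both on the minus strand, and Edc4 at chr8:108404781-108418808 on the plus strand. Exosc6 was placed on chromosome 8 by RefSeq and has no mm9 position here. For the comparison with the 40 nearest genes below, it was given the mm9 position of its closest neighbour in RefSeq. The other members of their complexes lie on other chromosomes, among them Cnot8 on chromosome 11, Exosc5 on chromosome 7, Lsm8 on chromosome 6 and Edc3 on chromosome 9.

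Because the 7 genes moved together, the sequences before their start sites were read where RefSeq promoter sequences were at hand, which was for 33 of the 41 members and 3 of the 7. The 250 bases before the start of Lsm6 (chr8:78821153-78821402, minus strand), Edc4 (chr8:105880631-105880880, plus strand) and Exosc6 (chr8:111056089-111056338, plus strand) are shown, with those of Exosc5 (chr7:25658903-25659152, plus strand), a ring partner of Exosc6 that did not rise, for comparison. Positions are those of GRCm38.p6, sequences run 5′ to 3′ on the gene's strand, and capitals mark CCAAT boxes and GC boxes.
Lsm6: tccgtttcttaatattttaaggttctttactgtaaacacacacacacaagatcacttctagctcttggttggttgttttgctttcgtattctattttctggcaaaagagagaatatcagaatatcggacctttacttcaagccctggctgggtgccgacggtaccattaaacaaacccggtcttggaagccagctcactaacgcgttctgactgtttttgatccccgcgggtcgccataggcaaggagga
Edc4: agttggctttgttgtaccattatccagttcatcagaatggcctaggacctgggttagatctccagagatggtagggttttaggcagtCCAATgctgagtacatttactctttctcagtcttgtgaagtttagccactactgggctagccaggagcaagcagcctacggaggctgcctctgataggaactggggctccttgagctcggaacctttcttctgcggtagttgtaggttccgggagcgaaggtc
Exosc6: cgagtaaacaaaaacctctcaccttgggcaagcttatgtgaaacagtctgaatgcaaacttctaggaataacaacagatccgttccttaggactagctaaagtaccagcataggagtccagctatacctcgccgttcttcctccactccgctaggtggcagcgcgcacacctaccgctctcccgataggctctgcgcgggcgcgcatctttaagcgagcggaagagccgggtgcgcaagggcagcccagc
Exosc5: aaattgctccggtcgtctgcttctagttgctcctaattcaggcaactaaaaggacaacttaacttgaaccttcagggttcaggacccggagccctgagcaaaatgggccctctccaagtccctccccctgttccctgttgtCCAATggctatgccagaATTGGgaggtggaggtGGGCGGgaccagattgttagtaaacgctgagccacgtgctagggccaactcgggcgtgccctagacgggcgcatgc
In these bases, Lsm6 and Exosc6 held none of 7 motifs searched on both strands (the box CCAAT that NFY binds, the GC box GGGCGG that SP1 binds, the TATA box written TATAAA, the YY1 motif AAGATGG, the ETS motif CCGGAAG, the NRF1 motif GCGCATGCG and the BANP motif TCTCGCGAG), none of which contains another. Edc4 held 1 CCAAT box, 163 bases before the start. Over the whole window of 300 bases, which runs 50 bases past the start, the GC box was found in 1 of the 3 promoters on chromosome 8, in 25 of 30 promoters of the other members and in 35.9% of all 27025 promoters. The ETS motif was found in 1 of 3, in 8 of 30 and in 9.12% respectively, and TATAAA in none of the 33 members' promoters against 14.2% of all. No motif of the 7 was common to the 3 promoters.

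The 7 members on chromosome 8 were higher in both clones at every stage, in group mean, by 1.31 to 2.16 times WT. The median log2 fold change of the 7 was 0.51 in KO4 and 0.48 in KO8 in naive cells, 0.47 and 0.49 in primed cells, 0.50 and 0.55 in NPC cultures and 0.68 and 0.53 in CM cultures. The 34 other members stayed around WT, with median log2 fold changes between -0.04 and 0.02 in 7 comparisons and 0.21 in CM cultures of KO4. In those 7 comparisons, all 34 had a lower fold change than the lowest of the 7, and in CM cultures of KO4 28 of 34 did.

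**Figure D1:**
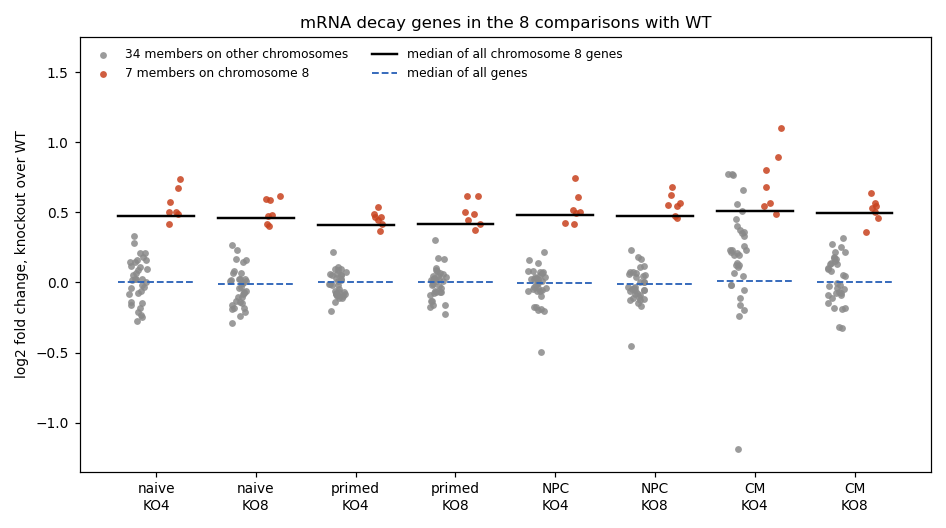
Log2 fold changes of knockout over WT (vertical axis) for the 41 members in the 8 comparisons (horizontal axis), as 1 point per gene, with the 7 members on chromosome 8 in red and the 34 others in grey. Black lines mark the median of all chromosome 8 genes whose base mean reached 100 and dashed lines that of all genes. The red points lie around the black lines and, except in CM cultures of KO4, above every grey point.

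At an adjusted p under 0.05 in both clones with the same sign, 9 of the 41 members were higher in naive cells, where 10.7% of all tested genes were. All 7 genes on chromosome 8 were among them, and the other 2 were Cnot6 and Exosc7. In primed cells 7 of 41 were higher (5.37% of all genes), in NPC cultures 6 of 41 (4.77%) and in CM cultures 6 of 41 (5.08%), and every one of these lies on chromosome 8. The 6 genes Cnot1, Cnot7, Edc4, Exosc6, Lsm4 and Lsm6 were higher in both clones at all 4 stages, as were 1.76% of all genes tested at every stage. Of those 199 genes, 197 lie on chromosome 8, where 31.3% of the tested genes met this rule. Lower in both clones were Cnot8 and Exosc5 in naive cells (10.8% of all genes) and no member in primed, NPC or CM cultures (2.9%, 2.21% and 6.58%).

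Taken clone by clone, naive cells held further calls among the 34 members on other chromosomes. In KO4 9 of 34 were called higher and 6 lower, where 17.2% and 17.8% of all genes were, and in KO8 2 were called higher and 4 lower, where 15.8% and 15.3% were. In primed cells 0 of 34 passed in either clone, where 8.32% of all genes were higher and 6.34% lower in KO4 and 7.13% and 4.09% in KO8. In NPC cultures 1 of 34 passed, lower in KO4 (Lsm11), where 7.85% of all genes were higher and 5.12% lower in KO4 and 6.53% and 3.34% in KO8. These shares of all genes include chromosome 8, and the shares off it were not computed per clone. Of the genes higher in both clones, 514 of 1580 in naive cells, 370 of 635 in primed cells and 353 of 668 in NPC cultures lie on chromosome 8. Naive cells had both the most libraries and the deepest ones.

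Among genes of chromosome 8 as a whole, 66.1% were higher in both clones in naive cells, 56.5% in primed cells, 47.9% in NPC cultures and 41.7% in CM cultures. Of the 7 members, 7, 7, 6 and 6 were called at these stages. Over the chromosome 8 genes whose base mean reached 100 (563 to 630 genes), the median log2 fold change relative to all genes was between 0.41 and 0.51, while on each of the 19 other chromosomes compared it was between -0.08 and 0.05. With genes of any base mean included, it was 0.26 in KO4 and 0.27 in KO8 in primed cells. The difference between the median of the 7 members and that of the other 34 was between 0.47 and 0.59 in the 8 comparisons. When every gene was centred on the median of its own chromosome and tested again, no member on chromosome 8 was called in both clones at any stage. DNA copy number was not measured, and a change in dose of the chromosome and a change in its transcription cannot be told apart in these data.

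Cnot1, the scaffold of CCR4-NOT and by WT level per kilobase of exon the first of its 11 genes at every stage, averaged 32888 normalised counts in naive WT cells, 44126 in KO4 and 46066 in KO8. Its log2 fold changes were 0.42 ± 0.04 and 0.48 ± 0.04 (SE) in the 2 naive clones, 0.49 ± 0.04 and 0.62 ± 0.04 in primed cells, 0.50 ± 0.06 and 0.47 ± 0.11 in NPC cultures and 0.54 ± 0.11 and 0.53 ± 0.11 in CM cultures. It was thus higher than WT in each of the 8 comparisons by 4 or more standard errors.

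Cnot7 and Cnot8 encode interchangeable deadenylases of the CAF1 kind, and only Cnot7 lies on chromosome 8. Cnot7 averaged 3790 in naive WT cells, 5407 in KO4 and 5774 in KO8, and 2779, 4722 and 4202 in NPC cultures. Its log2 fold changes ran from 0.47 ± 0.08 in primed KO4 to 0.74 ± 0.07 in NPC cultures of KO4, and it was called in all 8 comparisons. Cnot8 averaged 3845, 3156 and 3303 in the naive groups, and its log2 fold changes there, -0.28 ± 0.07 and -0.21 ± 0.07, were called in both clones (adjusted p = 0.000249 and 0.00646, DESeq2). At the other stages Cnot8 lay between -0.16 and 0.08 and did not pass the test. Per kilobase of exon, the Cnot7 level was 0.446 of the Cnot8 level in naive WT cells, 0.776 in KO4 and 0.792 in KO8, and in CM cultures 0.923, 1.41 and 1.38. The size of these ratios depends on the exon lengths used (5821 and 2636 bases), while their change from WT to knockout does not. The Cnot7 fold change exceeded that of Cnot8 by 0.78 ± 0.08 and 0.81 ± 0.08 in naive cells and by 0.51 to 0.66 at the other stages. In naive cells the 2 deadenylase genes thus moved in opposite directions.

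Among the 9 CCR4-NOT genes on other chromosomes, the naive calls shared by both clones were those of Cnot8 and of Cnot6, a deadenylase of the CCR4 kind. Cnot6 averaged 5005 in naive WT cells, 5805 in KO4 and 5902 in KO8 (log2 fold changes of 0.21 ± 0.06 and 0.23 ± 0.05). In CM cultures it stood at 4540, 4060 and 3963, with -0.16 ± 0.09 and -0.19 ± 0.09, neither called. The other 7 (Cnot2, Cnot3, Cnot4, Cnot6l, Cnot9, Cnot10 and Cnot11) were called in both clones at no stage. In primed and NPC cultures none of the 9 passed in either clone.

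**Figure D2:**
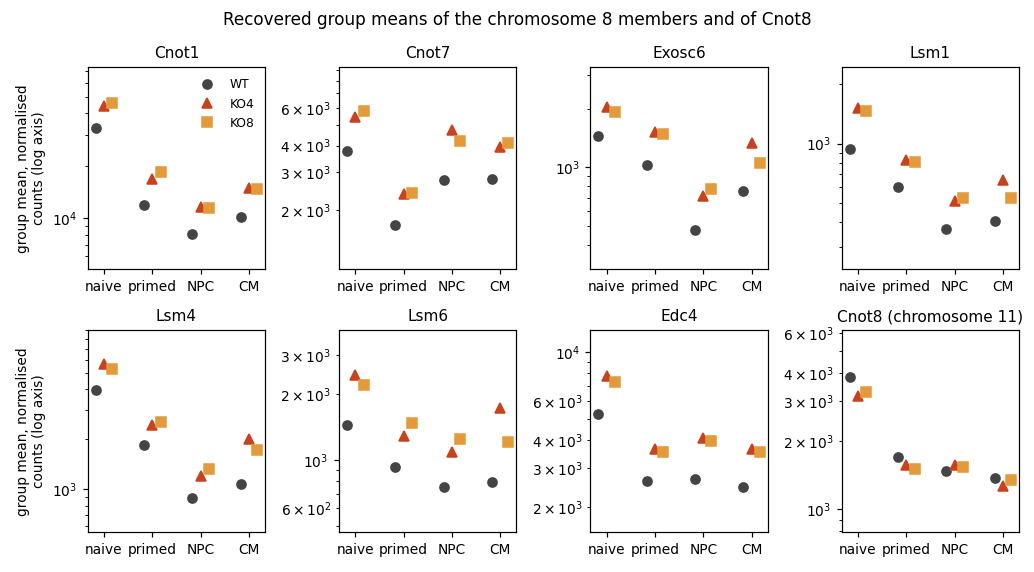
Group means in normalised counts (vertical axis, log scale) of WT, KO4 and KO8 cells at the 4 stages (horizontal axis) for the 7 members on chromosome 8 and for Cnot8 on chromosome 11. Each symbol is the recovered mean of 3 (naive) or 2 libraries, no error is drawn, and levels are comparable within a stage only. In the 7 chromosome 8 panels both clones lie above WT at every stage, and in the Cnot8 panel they do not.

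Exosc6 is the exosome subunit on chromosome 8. It averaged 1443 in naive WT cells, 2039 in KO4 and 1924 in KO8, and 1027, 1526 and 1492 in primed cells. In NPC cultures the means were 480, 714 and 776, and in CM cultures 759, 1329 and 1056. Its log2 fold changes, 0.40 ± 0.07 at the lowest (naive KO8) and 0.80 ± 0.13 at the highest (CM, KO4), passed in all 8 comparisons. No other of the 11 exosome genes did so.

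The 10 exosome genes elsewhere went both ways in naive cells. Exosc7, a ring subunit, averaged 1349 in WT, 1707 in KO4 and 1635 in KO8 (0.33 ± 0.06 and 0.27 ± 0.06, called in both). Exosc5, another ring subunit, averaged 3061, 2757 and 2500 (-0.15 ± 0.05 and -0.29 ± 0.06, called in both). The cap subunits Exosc2 and Exosc3 and the nucleases Dis3 and Exosc10 were called higher in KO4 alone, by 0.15 to 0.28, and the ring subunits Exosc4 and Exosc8 were called lower in KO8 alone, by -0.24 and -0.15. In primed and NPC cultures none of the 10 passed in either clone, and their medians were between -0.04 and 0.02. The Exosc6 fold change exceeded that of its ring partner Exosc4 by 0.49 to 0.82 over the 8 comparisons, that of Exosc5 by 0.48 to 0.71 and that of Exosc9 by 0.39 to 0.66. Its excess over Exosc8 was 0.15 to 0.65 and that over Exosc7 0.13 to 0.47. The excess over Exosc7 was smallest in naive cells (0.15 ± 0.10 and 0.13 ± 0.10, SE) and in CM cultures of KO8 (0.14 ± 0.20).

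Of the Lsm ring, Lsm4 and Lsm6 belong to both the cytoplasmic and the nuclear form. Lsm4 averaged 3949 in naive WT cells, 5626 in KO4 and 5302 in KO8, and 1081, 2019 and 1715 in CM cultures. Lsm6 averaged 1439, 2440 and 2193 in naive cells and 795, 1721 and 1203 in CM cultures. Both were called in all 8 comparisons, Lsm4 with log2 fold changes of 0.36 ± 0.08 to 0.89 ± 0.12 and Lsm6 with 0.44 ± 0.09 to 1.10 ± 0.13, and both maxima were in CM cultures of KO4. Their ring partners Lsm2, Lsm3, Lsm5 and Lsm7, on chromosomes 17, 6, 6 and 10, were called in both clones at no stage. In primed cells those 4 partners lay between -0.11 and 0.05, against 0.36 to 0.62 for Lsm4 and Lsm6.

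Lsm1, which marks the cytoplasmic ring, was the 1 gene of the 7 that was not called in all 8 comparisons, although in naive KO8 its fold change was the highest of the 7. It averaged 937 in naive WT cells, 1516 in KO4 and 1458 in KO8 (0.68 ± 0.07 and 0.62 ± 0.07). In NPC cultures the means were 370, 514 and 531 and in CM cultures 405, 655 and 530. The fold changes of KO8 there, 0.46 ± 0.17 and 0.36 ± 0.16, did not pass (adjusted p = 0.0783 and 0.106, DESeq2), where the chromosome's medians were 0.48 and 0.49, and their 95% intervals reached from 0.12 to 0.80 and from 0.04 to 0.67. Lsm8, its nuclear counterpart on chromosome 6, averaged 1431, 1630 and 1607 in naive cells and lay between -0.06 and 0.18 throughout, with 1 call (naive KO4). The Lsm1 fold change exceeded that of Lsm8 by 0.49 ± 0.10 and 0.46 ± 0.10 in naive cells and by 0.23 ± 0.22 to 0.55 ± 0.23 in CM cultures. Per kilobase of exon, Lsm1 stood at 1.14 times Lsm8 in naive WT cells and at 1.62 and 1.58 times in KO4 and KO8.

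Of the U7 proteins, Lsm11 averaged 920 in NPC cultures of WT, 631 in KO4 and 648 in KO8. Its log2 fold changes were -0.50 ± 0.12 (adjusted p = 0.00041, DESeq2) and -0.45 ± 0.16 (adjusted p = 0.0502), so that the call in KO8 just missed the threshold. It is named because it had the lowest value of any member in both NPC comparisons, a choice made after its values were seen. In these cultures the neural progenitor marker RNA was at 181% and 195% of WT, and Acta2 and Col1a1 were lower. The neural progenitor sum was also above WT in naive cells (171% in both clones), where it rested mainly on Tubb3 and Nes, and primed cells (150% and 151%). The part of these cell markers in the Lsm11 values was not tested.

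Edc4, the scaffold that brings Dcp2 and its activators together, averaged 5232 in naive WT cells, 7820 in KO4 and 7309 in KO8, and 2464, 3659 and 3529 in CM cultures. It was called in all 8 comparisons, with log2 fold changes of 0.41 ± 0.06 (primed KO8) to 0.61 ± 0.07 (NPC, KO4). Edc3, an enhancer of decapping on chromosome 9, lay between -0.11 and 0.11 and was called nowhere. Per kilobase of exon the Edc4 level was 2.05 times that of Edc3 in CM cultures of WT and 2.94 times in both KO4 and KO8. The 7 decapping and 5′-3′ decay genes on other chromosomes had medians between -0.08 and 0.05 in the 8 comparisons, and none of them was called in the same direction in both clones at any stage. In naive KO4 Dcp1a, Dcp2 and Xrn1 were called lower, by -0.14, -0.21 and -0.23, and in naive KO8 none of the 7 was called.

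**Figure D3:**
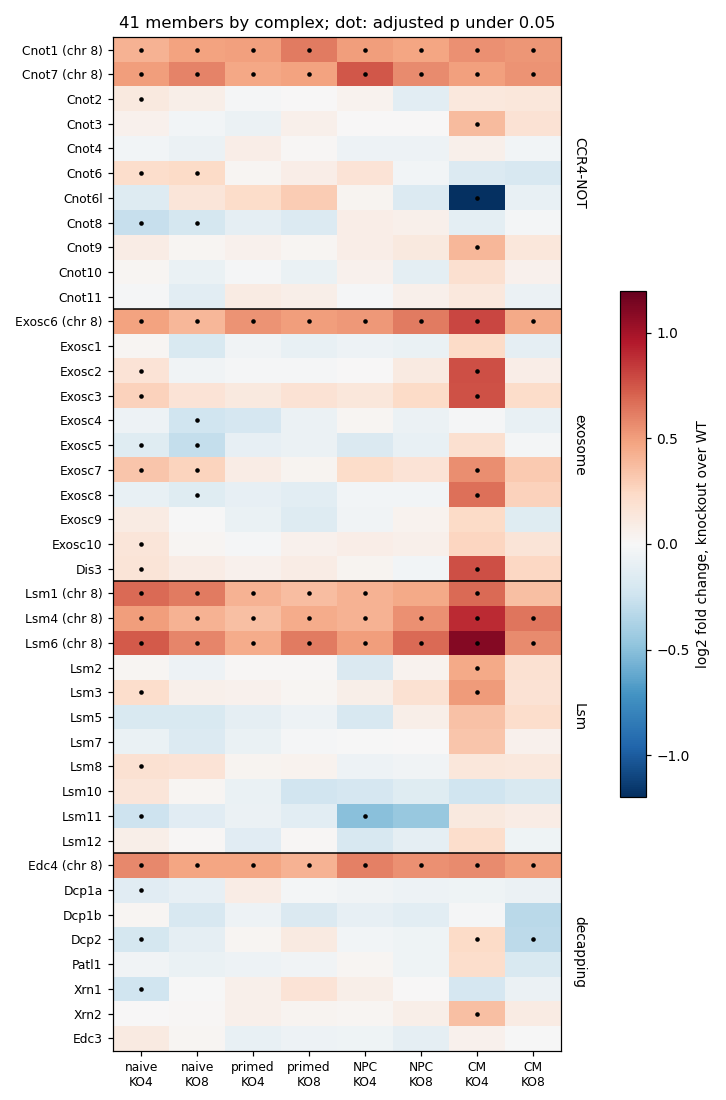
Log2 fold changes of knockout over WT (colour) of the 41 members (rows, grouped by complex) in the 8 comparisons (columns), with a dot where the deposited adjusted p was under 0.05. The rows of the chromosome 8 members are red across the columns, and the other rows carry most of their dots in naive cells and in CM cultures of KO4.

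Set against their own chromosome, the 7 members mostly lay close to it, though on the upper side. Their median lay above that of all chromosome 8 genes in all 8 comparisons, a difference that was not tested. It was 0.48 against 0.46 in naive KO8 and 0.68 against 0.51 in CM cultures of KO4. The fold change minus the chromosome 8 median, tested with the deposited SE and adjusted over all chromosome 8 genes, was called in 9 of 56 member comparisons, and for no member in both clones of a stage. Against the median of its 40 nearest genes instead, 9 of 56 were called as well, and Cnot7 (0.16 and 0.15 above, adjusted p = 0.00411 and 0.00661, Wald test with Benjamini-Hochberg adjustment) and Lsm1 (0.24 and 0.18 above, adjusted p = 0.00297 and 0.0265) passed in both naive clones. In naive KO4, Lsm6 lay 0.27, Lsm1 0.21 and Edc4 0.10 above the median, where 42.4% of chromosome 8 genes differed from it. In naive KO8 Cnot7 lay 0.14 above (36.6% of genes), in primed KO8 Cnot1 0.20 above (12.4%) and in NPC cultures of KO4 Cnot7 0.26 above (12.2%). In CM cultures of KO4 Lsm6 lay 0.59, Lsm4 0.38 and Exosc6 0.29 above (47.3%). In primed KO4, NPC cultures of KO8 and CM cultures of KO8 no member was called (17.8%, 5.53% and 20.9% of genes).

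**Figure D4:**
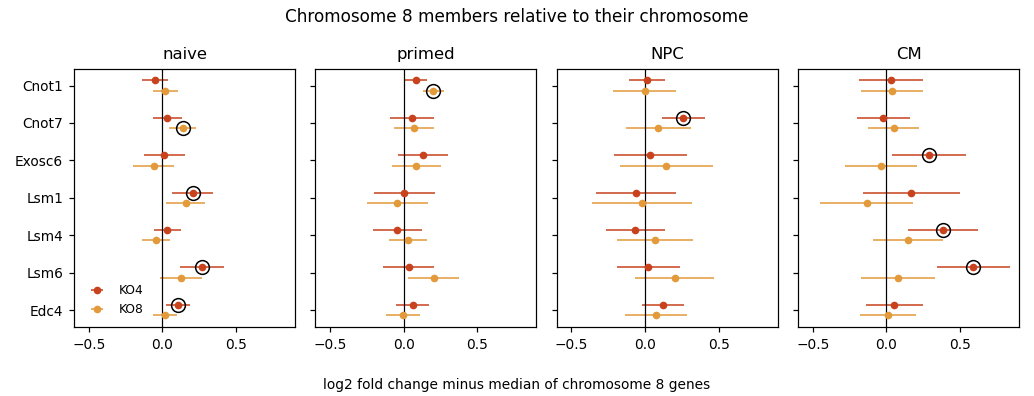
Log2 fold change of each chromosome 8 member minus the median of all chromosome 8 genes (horizontal axis, with 95% intervals from the deposited SE) for KO4 and KO8 at the 4 stages (panels). Circled points passed the test at an adjusted p under 0.05, and all 7 intervals hold 0 in NPC and CM cultures of KO8, against 4 of 7 in naive KO4, 5 of 7 in naive KO8 and 4 of 7 in CM cultures of KO4.

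The same setting of the other 34 members gives the reverse picture. The 95% interval of the fold change lay below the chromosome 8 median for all 34 in both naive clones, for 33 in both primed clones, for 33 and 30 in NPC cultures of KO4 and KO8 and for 30 in CM cultures of KO8. In CM cultures of KO4 it lay below for 18, held the median for 15 and lay above it for Dis3 alone. Outside that comparison the genes whose interval held the median were Cnot6l in primed cells, Exosc7 in NPC cultures of both clones, Exosc3, Lsm3 and Lsm5 in NPC cultures of KO8, and Exosc3, Exosc7, Exosc8 and Lsm5 in CM cultures of KO8.

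CM cultures of KO4 stood apart from all other comparisons. There 11 of the 34 members on other chromosomes were called higher and 1 lower, where 21.8% of all genes were higher and 23.9% lower, and in CM cultures of KO8 0 were called higher and 1 lower (10.7% and 9.7% of all genes, DESeq2 at an adjusted p under 0.05). These shares include chromosome 8, which held 324 of the 750 genes called higher in both clones in CM cultures. The rise in KO4 covered 5 of the 10 exosome genes, with a median of 0.41 over the 10 against 0.12 in KO8. Dis3, the main nuclease of the exosome, averaged 1334 in WT, 2293 in KO4 and 1595 in KO8. The cap subunits Exosc2 (671, 1155 and 711) and Exosc3 (479, 820 and 564) were raised in KO4 to a like extent. Their log2 fold changes in KO4 were 0.78 ± 0.11, 0.77 ± 0.14 and 0.77 ± 0.15, and those in KO8, none of them called, were 0.25 ± 0.11, 0.08 ± 0.14 and 0.22 ± 0.15. The other genes called higher in KO4 alone were Exosc7 (0.56), Exosc8 (0.66), Lsm2 (0.46), Lsm3 (0.51), Cnot3 (0.38), Cnot9 (0.40), Dcp2 (0.23) and Xrn2 (0.36).

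Cnot6l, a deadenylase of the CCR4 kind, was the member lowered in those cultures. It averaged 1200 normalised counts in CM cultures of WT, 521 in KO4 and 1125 in KO8, with log2 fold changes of -1.19 ± 0.14 and -0.09 ± 0.12. Dcp2, the decapping enzyme, averaged 3565, 4185 and 2851, so that it was called higher in KO4 and lower in KO8 (0.23 ± 0.10 and -0.31 ± 0.10). The KO4 libraries of this stage are those with 0.978% of the cardiomyocyte marker RNA of WT and 308% of the neural progenitor marker RNA. The 8 naive stem cell markers summed to 237% of WT in KO4 and 62.3% in KO8. Of those 8, 5 were called higher and 2 lower (Klf4 and Tbx3) in KO4, and 1 higher (Tbx3) and 6 lower in KO8. The part of these markers in the values of the decay genes was not tested.

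The fold changes of both clones differed for 7 members in CM cultures, where 31.3% of all genes did. These were Cnot6l, Dcp2, Dis3, Exosc2, Exosc3, Lsm6 and Patl1 (a difference tested against the summed squared SEs, Benjamini-Hochberg over all genes). Lsm6 was the only one of them on chromosome 8, with 1.10 in KO4 and 0.57 in KO8. In naive, primed and NPC cultures no member differed between clones at an adjusted p under 0.05, and of all genes 3.52%, 0.575% and 0.671% did. This test overstates the error, since both clones share the WT libraries. With the mean of the squared SEs in place of their sum, 4 members differed in naive cells, 1 in primed cells, 0 in NPC and 13 in CM cultures.

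**Figure D5:**
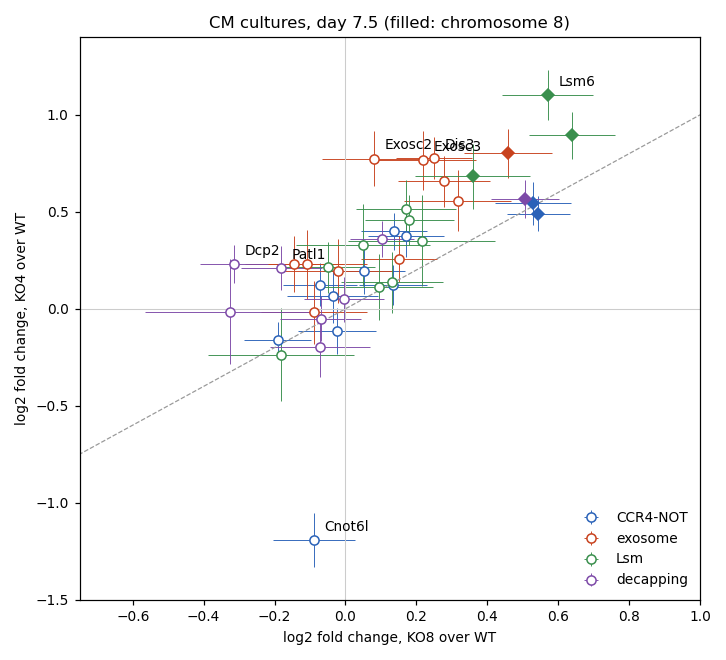
Log2 fold changes in CM cultures of KO4 (vertical axis) against KO8 (horizontal axis), 1 point per member with its SE in both directions, coloured by complex and filled for chromosome 8. The 7 named genes differ between the clones, the dashed line marks equal change, and the filled points lie right of 0.35 on the horizontal axis.

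Between stages, the fold changes of 2 members differed in both clones, both of them on other chromosomes and both between CM and naive cultures, where 10.8% of all genes differed. Cnot6 was lower in CM than in naive cells relative to WT, by -0.37 ± 0.11 in KO4 and -0.42 ± 0.11 in KO8. Exosc8 was higher, by 0.74 ± 0.14 and 0.43 ± 0.14. No member differed in both clones between primed and naive cells (3.77% of all genes), NPC and naive (4.85%), NPC and primed (1.88%), CM and primed (7.15%) or CM and NPC cultures (5.18%). None of the 7 members on chromosome 8 differed between any 2 stages in both clones. In KO4 alone Lsm4 and Lsm6 were higher in CM cultures than at each of the other 3 stages, and in KO8 no chromosome 8 member differed between stages.

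A list of 69 further genes of RNA decay, with the deadenylases Parn, Pan2 and Pan3, poly(A)-binding proteins, nuclear exosome cofactors, nonsense-mediated decay factors and RNA-binding adaptors, was read in the same way. Of the 64 to 67 tested at a stage, 10 were higher and 5 lower in both naive clones, 6 and 3 in primed cells, 6 and 1 in NPC cultures and 8 and 7 in CM cultures. Off chromosome 8 these counts were 5 and 5 of 61 in naive cells (10.7% and 10.8% of all genes), 1 and 3 of 59 in primed cells (5.37% and 2.9%), 2 and 1 of 60 in NPC cultures (4.77% and 2.21%) and 3 and 7 of 61 in CM cultures (5.08% and 6.58%). These shares include chromosome 8, which held 514 of the 1580 genes higher in both naive clones and 370 of 635 in primed cells. In NPC and CM cultures it held 353 of 668 and 324 of 750, so the shares called higher off it were smaller than those printed. Of the list genes called higher, 5, 5, 4 and 5 lie on chromosome 8, from which 5 or 6 list genes were tested. The 4 list genes called higher in both clones at all stages were Eri1, Tent4b, Upf1 and Upf3a, all on chromosome 8.

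Upf1, the helicase at the centre of nonsense-mediated decay, had log2 fold changes between 0.37 and 0.72 in the 8 comparisons, and Upf3a, its partner, between 0.45 and 0.70. Eri1, a 3′-5′ exonuclease that trims histone mRNA ends, lay between 0.52 and 1.10, and Tent4b, a poly(A) polymerase that tags RNA for the nuclear exosome, between 0.48 and 0.86. Mphosph6, a nuclear exosome cofactor, lay between 0.43 and 0.82 and passed in both clones at 3 stages. The remaining list gene on chromosome 8, Nanos3, was near the detection limit, with base means of at most 37.6, and was not called.

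On other chromosomes, 5 list genes were called in both clones at 2 or more stages. Pabpc1, the main cytoplasmic poly(A)-binding protein, was lower in primed cells (-0.10 ± 0.03 in both clones) and higher in CM cultures (0.50 ± 0.07 and 0.21 ± 0.07). Smg5, which acts in nonsense-mediated decay, was higher in naive cells (0.32 ± 0.05 and 0.16 ± 0.04) and primed cells (0.20 ± 0.06 and 0.17 ± 0.06). Pnrc1 was lower in naive cells (-0.65 ± 0.07 and -0.58 ± 0.07) and primed cells (-0.34 ± 0.11 and -0.42 ± 0.11). Btg1 and Btg2 bind the CAF1 deadenylases and are antiproliferative genes. Btg1 was lower in naive cells (-0.74 ± 0.08 and -0.63 ± 0.07), higher in NPC cultures (0.37 ± 0.09 and 0.42 ± 0.13) and lower in CM cultures (-1.11 ± 0.11 and -0.38 ± 0.10). Btg2 was higher in naive cells (0.46 ± 0.08 and 0.42 ± 0.08) and NPC cultures (0.44 ± 0.14 and 0.87 ± 0.20) and lower in CM cultures (-1.47 ± 0.12 and -0.51 ± 0.11). Of these 5, none was called in the same direction at all stages.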

How the data were processed

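Per the methods and the submitters' processing notes, the authors trimmed reads with Trim Galore 0.6.7 and aligned to mm9 using HISAT2 2.2. Gene counts came from featureCounts, and DESeq2 1.46.0 compared each clone with WT of the same stage. Strand and multi-mapping settings are not given in the sources used here. The deposited values of each of the 8 tables are a base mean (a normalised signal), a log2 fold change, its standard error, the Wald score and an adjusted p-value. These are the authors' own comparisons, used because the files hold no value per library. No counts could be modelled again.

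The log2 fold changes of the authors' DESeq2 run were taken to carry a prior, which no source states. It was inferred from the ceiling of the standard errors (SD of 0.343 to 1.31, double the largest of each table) and removed to recover group means, and the printed fold changes are the deposited ones. The members are protein-coding genes with base means of at least 103. Genes were placed on chromosomes with the mm9 annotation by symbol (20202) or synonym (2410), with RefSeq's chromosome alone for 2506, and 91 had none. Levels per kilobase used the union of exons over all transcripts of a gene in the GENCODE mm9 annotation, without Exosc6. These need not be the gene models on which the authors counted reads, so ratios and ranks between genes are approximate. Motifs were searched in the first RefSeq promoter of each gene (GRCm38.p6).

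A gene was called at a deposited adjusted p under 0.05 in both clones with the same sign. Differences between stages and clones used Wald tests with Benjamini-Hochberg adjustment over all genes, tested on simulated data. The recovery first required there was narrowly missed for clone differences in CM cultures, and was then required of genes with small standard errors alone, so differences of genes with large errors may be missed. Named were all members on chromosome 8 with the paralogues Cnot8 and Lsm8, members called in both clones, and members that differed between stages or clones. Edc3, Exosc5 and the other ring genes were added for comparison with a complex partner. The members and lists were chosen with earlier results of these data known. Depth was estimated from genes with 1 read, and limits precision to the standard errors given. Python 3.11.15 with numpy 2.4.6, pandas 2.3.3, scipy 1.17.1 and matplotlib 3.10.9 was used. The alternatives tried were other thresholds, gene sets for the adjustment, centrings and references, and values without the prior.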

Additional observations from a re-analysis of the deposited data

Results flagged for a closer look

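Differences between groups under the same contrast drew attention to 9 members. Between CM and naive cultures, the log2 fold change of Cnot6 differed by -0.37 in KO4 and by -0.42 in KO8, and that of Exosc8 by 0.74 and 0.43 (Wald test of the difference, adjusted p under 0.05 in both clones). Between the clones in CM cultures, KO4 minus KO8 was -1.10 for Cnot6l, 0.54 for Dcp2, 0.53 for Dis3, 0.70 for Exosc2, 0.55 for Exosc3, 0.53 for Lsm6 and 0.39 for Patl1 (the same test within the stage).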

How the results depend on the processing

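No paired analysis was possible because the files hold no value per library, and for the same reason no replicate could be left out. Of 130 recomputed counts and medians, 113 kept their size and 17 moved. A count kept its size if it was within a set ratio of the main one, as 11 members against 9 higher in naive cells. A median kept its size if it shifted by less than the median SE. Counts of 0 lower members could not move under a stricter threshold, so the tally overstates what was put to the test. With each gene centred on its own chromosome, 4 members were called higher in both naive clones, Cnot6 and Exosc7 as before and Exosc3 and Lsm8 in addition, and 0 in primed, NPC and CM cultures, none of them on chromosome 8, since that centring subtracts the chromosome's median. It gave 1 lower in naive cells (Cnot8), as did a threshold of 0.01, and a minimum log2 fold change of 0.25 left 0. With KO8 alone, an alternative chosen after seeing the data, 6 members were higher in CM cultures, as with both clones, and 1 was lower (Dcp2). The chromosome 8 members minus the others came to 0.54 in naive KO4 as means. Without a minimum base mean the chromosome 8 median fell to 0.34 and 0.36 in the naive clones and 0.26 and 0.27 in the primed ones. Against the 40 nearest genes, 2 members differed in naive KO8, Cnot7 and Lsm1, which also differed in naive KO4. With the mean of the squared errors, 4 members differed between clones in naive cells, 1 in primed cells and 13 in CM cultures. No result reversed. The deposited standard errors rest on 2 or 3 libraries per group.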
